A study of Mus musculus with 2 samples.

Results

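The MS4A genes encode small membrane proteins that cross the lipid bilayer several times and sit in 1 cluster on mouse chromosome 19. The members described here are Ms4a1, Ms4a4b, Ms4a4c, Ms4a4d, Ms4a6b, Ms4a6c, Ms4a6d and Ms4a7. They were taken as every array probe whose gene name is 1 of these 8 names, which gave 17 of the 41174 probes on the array. The genes were selected on the transgenic over control ratios of these same arrays, so all ratios below are a description and none was tested.

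Pla2g10 encodes group X secreted phospholipase A2, which releases fatty acids from membrane lipids. The thymus, where T cells develop, came from 6-month-old Pla2g10-Tg/+ mice and from littermate controls without the transgene, both on a C57BL/6 background and fed a standard diet. Each genotype is a pool of 4 mice, and the labels give neither the promoter of the transgene nor the number of transgenic lines. The 2 pools were hybridised together on 2 two-colour arrays. The transgenic pool carried Cy5 (red) on array 1 and Cy3 (green) on array 2. The labels do not say that the arrays hold separate pools, so they were read as a dye swap of 1 pool per genotype. The SD given with each ratio is that between the 2 arrays (n = 2 arrays of 1 pair of pools). It holds no spread between animals.

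Ms4a1 encodes CD20, a surface protein of B cells. Ms4a4b is expressed by T cells, where its product was found to associate with GITR, a costimulatory receptor encoded by Tnfrsf18. Ms4a7 and Ms4a6d are best known from macrophages. A relative outside the 8 members, Ms4a2, encodes the beta chain of the high-affinity IgE receptor of mast cells.

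In the transgenic thymus, Ms4a4b read higher on both arrays at 4 of its 5 probes, as did 27.5% of all measured probes. Since the genes were chosen on these ratios, nothing is read from that count. Ms4a4c (log2 ratio 0.30) and Ms4a6b (0.17) read higher by less than the mean of the Ms4a4b probes. Ms4a4c was still above the lowest measured Ms4a4b probe (0.25). Over the 3 Ms4a4b probes that were well above background in both pools the mean log2 ratio was 0.51 ± 0.04, or 1.43-fold. With the fourth, whose control was not well above background and whose ratio has only a lower bound, it was 0.45 ± 0.04. In pooled tissue RNA, more cells of a type and more transcript per cell cannot be told apart. CD20, Ms4a4d, Ms4a6c and Ms4a6d gave no signal well above background in either genotype, and Ms4a7 was called so in red only. None of the 6 measured probes reached a 2-fold difference after normexp and loess, and in the scanner software's log ratios none of the 5 that were well above background in both pools did (highest 0.92).

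The windows below are the 250 bases before the RefSeq start of the 3 measured genes (GRCm38.p6, plus strand), 5′ to 3′. They are shown because these 3 genes each read higher on both arrays, and any part of the windows in those ratios was not tested. Capitals mark every match, on either strand, to 1 of 6 motifs. The first is GGAAGT, bound by ETS transcription factors of lymphoid cells. The next is TGTGGT, bound by the RUNX transcription factors. Letters for the GATA transcription factors were taken as AGATAA in the search. The E-box that was searched for reads CAGCTG in this form. The TATA element was searched for as TATAAA in these windows. The octamer, which OCT factors bind in B cells, was searched for as ATGCAAAT in full. No matches overlapped in these windows.
Ms4a4b (chr19:11443308-11443557): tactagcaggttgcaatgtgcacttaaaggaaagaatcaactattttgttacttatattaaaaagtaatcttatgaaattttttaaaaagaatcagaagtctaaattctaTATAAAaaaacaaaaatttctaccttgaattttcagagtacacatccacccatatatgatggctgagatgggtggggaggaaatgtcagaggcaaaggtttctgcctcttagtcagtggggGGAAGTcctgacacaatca
Ms4a4c (chr19:11407411-11407660): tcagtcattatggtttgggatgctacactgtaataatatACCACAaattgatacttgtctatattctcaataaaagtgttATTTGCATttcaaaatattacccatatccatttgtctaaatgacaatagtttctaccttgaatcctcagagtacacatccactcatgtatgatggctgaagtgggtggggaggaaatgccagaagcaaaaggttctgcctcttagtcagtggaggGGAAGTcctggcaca
Ms4a6b (chr19:11518309-11518558): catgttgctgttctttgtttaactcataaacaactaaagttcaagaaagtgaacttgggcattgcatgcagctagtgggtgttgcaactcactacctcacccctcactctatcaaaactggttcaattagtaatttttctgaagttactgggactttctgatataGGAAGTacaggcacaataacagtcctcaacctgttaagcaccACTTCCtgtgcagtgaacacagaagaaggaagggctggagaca

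The RefSeq table held 7 windows for 6 of the 8 members. In a global alignment, 192 of the 250 bases (76.8%) were identical between Ms4a4b and Ms4a4c, the highest of all pairs of these windows. The next pair was Ms4a6c and Ms4a6b, with 62.0%. The ETS letters GGAAGT stood in 6 of the 7 windows, against 19.7% of 32851 such windows of all genes. They began 19 bases before the start in Ms4a4b, 15 in Ms4a4c, and 85 and, on the minus strand, 43 in Ms4a6b. In members that were not measured they began 16 bases before it in Ms4a6c, 221 in Ms4a4d and, on the minus strand, 15 in Ms4a7. The windows are of related genes and are not independent, and the letters were not particular to the measured ones. The RUNX letters occurred only in Ms4a4c (14.0% of all windows), 211 bases before the start, as did the octamer (1.6%), 170 bases before it. The TATA letters occurred only in Ms4a4b, 140 bases before the start (12.4% of all windows). Neither the GATA letters (9.99% of all windows) nor the E-box letters (13.0%) were in any of the 7. These are matches of letters and no evidence of binding.

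The scanner gave each spot a mean signal in each dye, over a local background of 30 to 39 units at the member probes. A signal was called well above background by the scanner software. A probe counted as measured where both arrays showed this for the same genotype, as held for 6 member probes and for 12234 of all 41174 probes. Spots with no target (314 negative controls) read 37.6 ± 3.22 and 42.0 ± 1.94 in the transgenic channels of arrays 1 and 2, and 44.6 ± 2.78 and 37.3 ± 2.50 in the control channels (SD over spots). Of all spots, 34.1% (array 1) and 28.5% (array 2) were well above background for the transgenic pool, against 29.0% and 33.2% for the control pool, so red had more on both arrays. The only Pla2g10 probe was well above background in 0 of 4 channels and does not check the genotype labels. Of 12 markers of immature thymocytes, the main cells of the organ, 11 were measured, among them Cd4, Cd8a and Rag1.

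**Figure D1:**
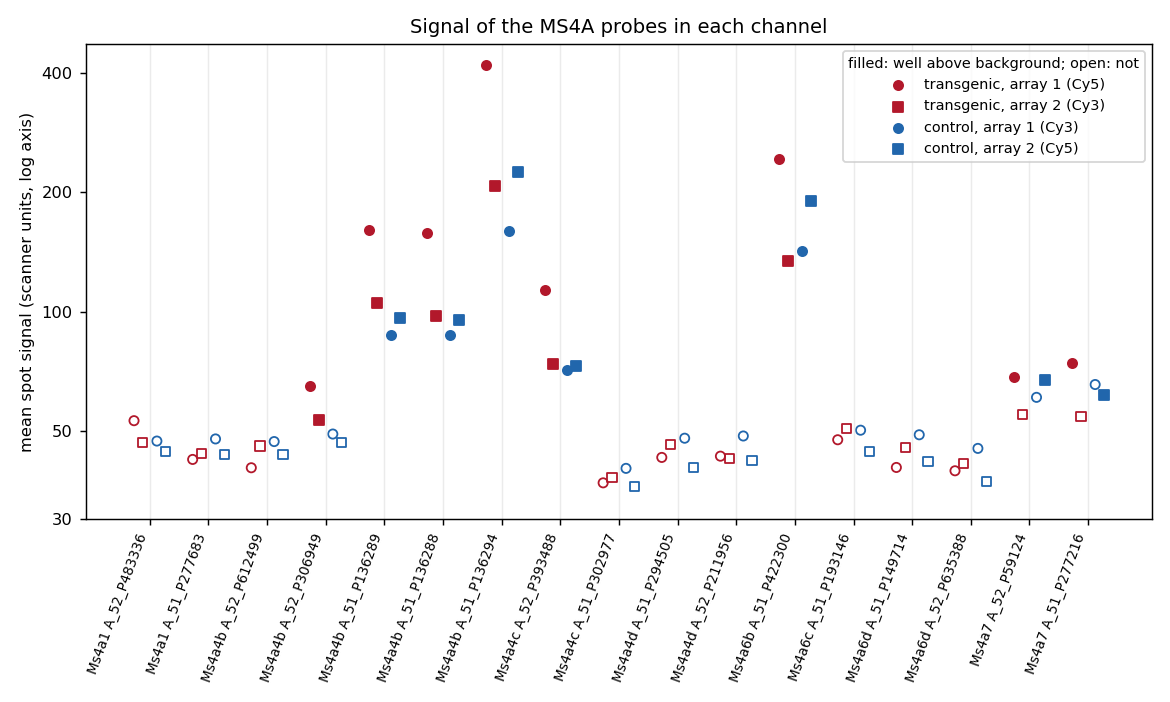
Mean spot signal (scanner units, log axis) of the 17 MS4A probes in the 4 channels: transgenic (red) left of control (blue), circles for array 1 and squares for array 2, filled where well above background. The Ms4a4b probe A_51_P136294 reached 419 units, while 9 probes have 4 unfilled points each, between 36.3 and 53.2 units.

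The most downstream Ms4a4b probe, A_51_P136294 (mm8 chr19:11530184-11530243, plus strand), read 419 and 207 units in the transgenic pool on arrays 1 and 2, against 160.3 and 225 units in the control pool. These raw signals overlap between the pools, and each pool read higher in red than in green. After loess, which fits the dye difference on each array, the channel levels were 8.39 and 8.19 (log2) in the transgenic pool and 7.61 and 7.64 in the control pool. Both transgenic levels were above both control levels. The log2 ratio was 0.79 on array 1 and 0.55 on array 2, with a mean of 0.67 ± 0.17 (1.59-fold).

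A pair of neighbouring Ms4a4b probes lies upstream of it and overlaps at the ends (mm8 chr19:11521807-11524890 and chr19:11524876-11526235). Both cover more of the genome than a probe of 60 bases, with spans of 3084 and 1360 bases. Probe A_51_P136289 read 160.5 and 106 units in the transgenic pool, against 87.4 and 96.6 units in the control pool. Its log2 ratios of 0.45 and 0.50 gave a mean of 0.47 ± 0.03. Probe A_51_P136288 read 158 and 97.5 units in the transgenic pool, against 87.7 and 95.2 units in the control pool, and its ratios of 0.39 and 0.42 gave 0.40 ± 0.02. In both probes the transgenic signals were the higher ones even before dye correction, on each array and across them.

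The most upstream measured Ms4a4b probe, A_52_P306949 (mm8 chr19:11517005-11517064), read 65.1 and 53.4 units in the transgenic pool, against 49.2 and 46.9 units in the control pool. Only the transgenic channels were well above background, so the difference has a lower bound, at least 1.16-fold higher. The bound sets the transgenic level against the higher of the control's own level and the lowest level of any probe well above background. The log2 ratio was 0.25 ± 0.03 (0.27 and 0.22). The fifth probe, A_52_P612499, was designed on the clone sequence AK037569 and lies further upstream (mm8 chr19:11512667-11512726). It was well above background in 0 of 4 channels, with 40.5 and 45.9 units in the transgenic pool against 47.1 and 43.8 units in the control pool.

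Along the gene, the 4 measured Ms4a4b probes start within 13179 bases of each other, and their mean ratios from upstream to downstream were 0.25, 0.47, 0.40 and 0.67. The most downstream probe had the highest ratio. An offset of 50 is added to each channel before the log, which shrinks ratios at low signal. With an offset of 0 the same probes gave 0.88, 0.81, 0.69 and 0.85, so the order along the gene was not kept. The first value of each series has a control not well above background. The mean over the other 3 probes was 0.78 with an offset of 0. The probes share a gene and are not replicates.

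Ms4a4c, the neighbour with the similar promoter, had 1 measured probe of 2. Probe A_52_P393488 (mm8 chr19:11493309-11493368, plus strand) read 114 and 74.0 units in the transgenic pool, against 71.6 and 73.1 units in the control pool. Its log2 ratio was 0.34 on array 1 and 0.26 on array 2, with a mean of 0.30 ± 0.06 (1.23-fold), and 0.65 with an offset of 0. The normalised levels of 6.82 and 6.64 in the transgenic pool lay above the 6.47 and 6.39 in the control pool. Its other probe, A_51_P302977, which has no position in the files, read 37.1 and 38.2 units in the transgenic pool and 40.3 and 36.3 units in the control pool. That probe was at the level of the negative controls and showed opposite signs on the 2 arrays, 0.14 and -0.09. Close relatives such as Ms4a4b and Ms4a4c can share target sequence, and cross-hybridisation was not tested, since probe sequences were not used here.

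Ms4a6b, a further family member on the plus strand of the cluster, showed the smallest difference of the measured genes. Its only probe, A_51_P422300 (mm8 chr19:11596938-11596997), read 243 and 134 units in the transgenic pool, against 142 and 190.2 units in the control pool. The log2 ratio was 0.24 on array 1 and 0.11 on array 2, with a mean of 0.17 ± 0.09 (1.13-fold). The normalised transgenic levels of 7.68 and 7.56 were above the control levels of 7.45 and 7.45. With an offset of 0 the mean was 0.24.

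**Figure D2:**
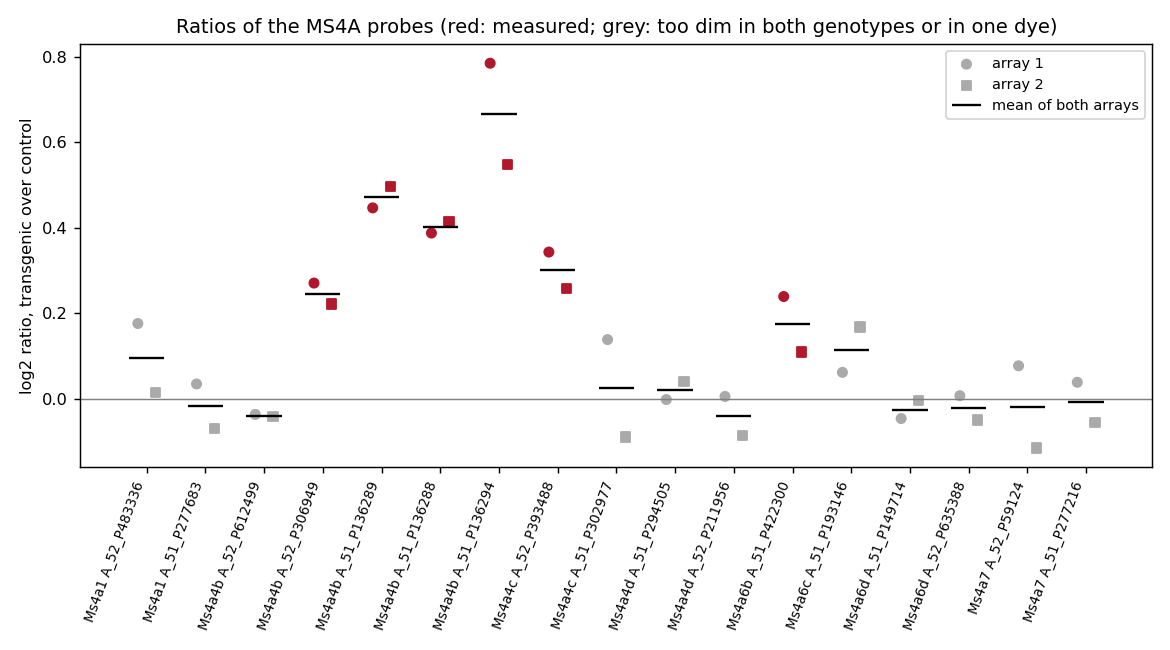
Log2 ratio, transgenic over control, of each of the 17 MS4A probes on array 1 (circles) and array 2 (squares), with the mean of both as a bar. The 6 measured probes (red) lie above 0 on both arrays, with means of 0.17 to 0.67, and the 11 others (grey) have means of -0.04 to 0.11.

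All 6 measured member probes were above 0 on both arrays and 0 were below 0 on both, but A_52_P306949 was measured only through the transgenic channels. Of the 5 well above background in all 4 channels, 5 were above 0 on both arrays, with a median of 0.40. Of all measured probes, 27.5% were above 0 on both arrays and 29.4% below. The median of the 6 was 0.35 over probes, and 0.30 over the 3 genes by their brightest probe, against -0.0059 over all 12234 measured probes. On each array at least 0.5 higher was 1 of the 6, A_51_P136294 of Ms4a4b, as were 0.294% of all measured probes. At least 0.5 lower on each array were 0 of the 6 and 0.0572% of all measured probes. At least 2-fold in the mean and 0.5 on each array were 0 of the 6 and 0.0327% of all. Since the ratios served to choose the family, nothing is read from these shares. The lowest measured Ms4a4b probe had a mean that 3.52% of all 12234 measured probes equalled or passed while above 0 on each array, itself included. For the highest it was 0.204%.

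**Figure D3:**
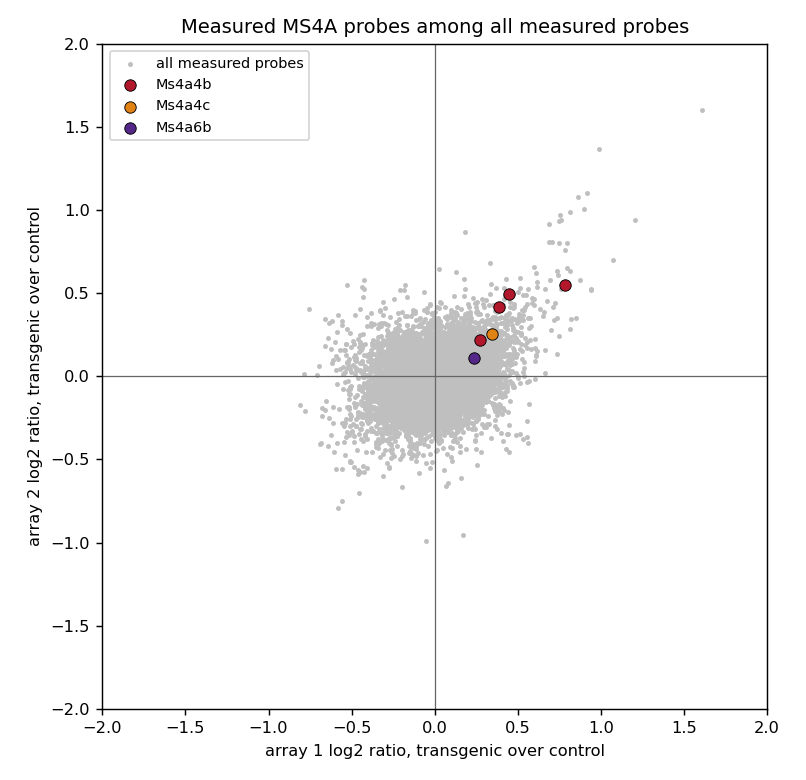
Log2 ratios, transgenic over control, on array 1 (x axis) and array 2 (y axis) of all 12234 measured probes (grey) and the 6 measured MS4A probes (coloured by gene). The MS4A probes lie in the upper right, with Ms4a6b nearest to 0 and A_51_P136294 at 0.79 and 0.55.

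The direction of the 6 means was the same under every way of processing tried, but with median centring in place of loess array 2 read below 0 for A_51_P136294 of Ms4a4b (-0.05) and for Ms4a6b (-0.41). Their array 1 values were then 1.29 and 0.68, and the means were 0.62 and 0.14. With that centring the turned arrays correlated at -0.46 across probes, against 0.29 with loess; genes are not independent replicates. With the log ratios of the scanner software the 6 means ran from 0.27 (Ms4a6b) to 1.18 (A_52_P306949 of Ms4a4b, with its control not well above background), and Ms4a4c was at 0.80.

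**Figure D4:**
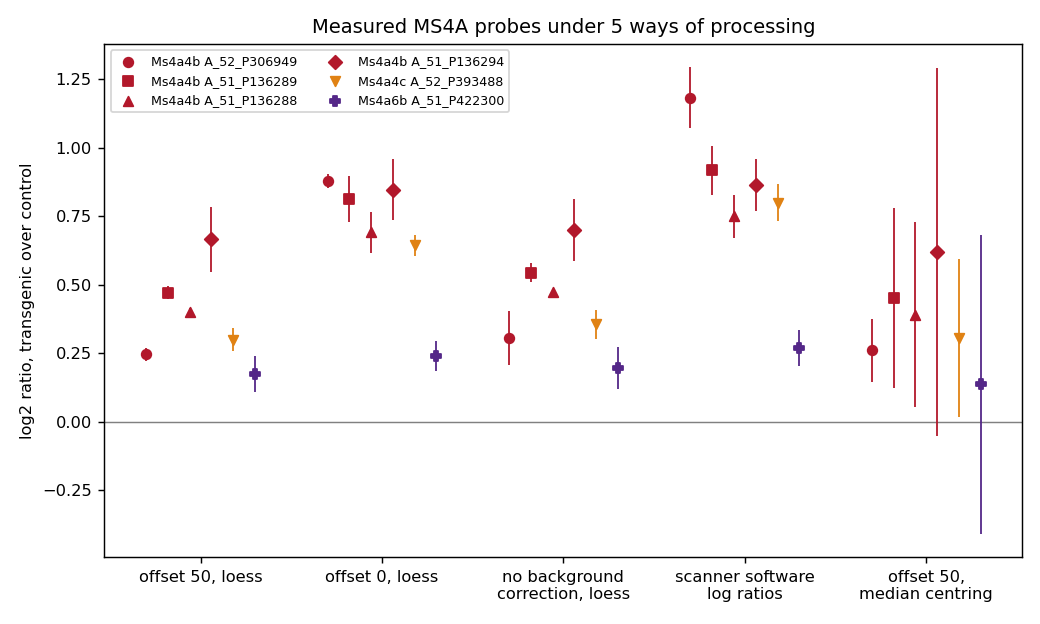
Log2 ratio, transgenic over control, of the 6 measured MS4A probes under 5 ways of processing: points are means of both arrays, and lines run from the lower to the higher array. With loess or the software's log ratios all lines stay above 0, and with median centring the lines of A_51_P136294 and Ms4a6b cross it.

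Ms4a1 was not called well above background. Probe A_52_P483336 read 53.2 and 46.8 units in the transgenic pool, against 47.2 and 44.4 units in the control pool. Probe A_51_P277683 read 42.5 and 44.0 units in the transgenic pool, against 47.8 and 43.6 units in the control pool. No channel of either probe carried the software's call, and no fold is given. The first probe's transgenic signal on array 1 lay 4.82 SD above the mean of the negative controls, and its control signal on that array 0.939 SD. On array 2 the order was reversed, with 2.48 SD for the transgenic and 2.84 SD for the control signal. In both Ms4a1 probes the red channel was the one further above the negative controls on each array, so these distances do not separate the pools. Among 16 other B cell markers on the array, 11 were not well above background in any channel, including Cd79a, Cd22 and Pax5. The 4 measured ones ran from Pou2af1 (0.02 ± 0.18), a B cell coactivator, to Blnk (0.34 ± 0.11), an adaptor of the B cell receptor, and 3 of the 4 were above 0 on both arrays. Their median was 0.18, and 0.037 with no filter on dim probes. Their summed normalised level was 2806 and 3019 units in the transgenic pool, against 2540.0 and 2411 units in the control pool. Ly6d (0.24 ± 0.17) carried most of that sum, with raw signals of 1663.5 to 3509 units, while no other measured marker passed 211 units. The sum thus mainly describes that gene.

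Of the macrophage members, Ms4a7 gave a faint signal that was called above background in red only. Probe A_52_P59124 read 68.6 and 55.2 units in the transgenic pool, against 60.9 and 67.3 units in the control pool. Probe A_51_P277216, which overlaps it on mm8 (chr19:11388559-11388618 and chr19:11388581-11389356, minus strand), read 74.3 and 54.6 units in the transgenic pool, against 65.6 and 61.7 units in the control pool. In both probes only the red channel was well above background, that is the transgenic one on array 1 and the control one on array 2. The green signals, without that call, lay 5.86 to 7.55 SD above the mean of the negative controls. Neither counted as measured, and their ratios turned sign between arrays, 0.08 and -0.12 in the first and 0.04 and -0.06 in the second.

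Ms4a6c, Ms4a6d and Ms4a4d were not well above background in any channel of their 5 probes. The Ms4a6c probe read 47.6 and 50.9 units in the transgenic pool, against 50.3 and 44.4 units in the control pool, and its ratios of 0.06 and 0.17 were the only ones above 0 on both arrays among these 5. Ms4a6d and Ms4a4d had probe means of -0.04 to 0.02. Of 18 other macrophage and monocyte markers, 17 were on the array and 11 were measured, 4 of them above 0 and 2 below 0 on both arrays. Their median was -0.0033, and their summed level was 2435 and 2305 units in the transgenic pool, against 2158 and 2176 units in the control pool. That sum weighs Lyz2 (0.17 ± 0.04) most, with raw signals of 587 to 1285 units, while the highest signal of another measured marker was 493 units. Mertk, Cx3cr1, Ccr2 and Itgam were not well above background in any channel. The measured ones ran from the complement gene C1qb (-0.18 ± 0.15) to the cathepsin gene Ctss (0.43 ± 0.42). The family's other genes on the array, 10 with 1 probe each, were all without a channel well above background, Ms4a2 among them. Tmem176b, a related membrane protein gene, was measured at 0.06 ± 0.0022. Fcer1g, the signalling chain shared by Fc receptors, was at -0.02 ± 0.02.

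Markers of mature T cells did not share 1 direction. Of 15 mature T cell markers 13 were measured, 5 of them above 0 and 4 below 0 on both arrays, against 28.3% and 29.1% of all 9393 measured genes. Their median was 0.08 in the mean of both arrays, 0.09 on array 1 and -0.02 on array 2. They ran from Klf2 (-0.54 ± 0.20), a factor for thymic exit, to Ccr7 (0.45 ± 0.15), a receptor that leads thymocytes to the medulla. The other measured Klf2 probe read 0.59. The summed normalised level of the 13 was lower in the transgenic pool, at 8626 and 8460 units, against 10305 and 9105 units in the control pool, the opposite sign to the median. Without Klf2 the sums were 5945 and 5892 units in the transgenic pool, against 5997 and 5715 units in the control pool, with no single direction across the arrays. S1pr1 and Gimap4 of this list were not well above background in any channel.

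Among regulatory T cell genes, Tnfrsf18, which encodes the GITR partner of Ms4a4b, was at -0.10 ± 0.02. Tnfrsf4, its neighbour in the receptor family, was at 0.27 ± 0.24, and the median of the 4 measured genes was 0.0041. Foxp3, Ctla4 and Izumo1r were not well above background in any channel. Of 10 dendritic cell markers only Bst2 (0.04 ± 0.23) and Xcr1 (0.08 ± 0.05) were measured. The 4 measured natural killer and cytotoxic genes had a median of 0.08, and 0.033 with no filter on dim probes, from Gzma (-0.01 ± 0.01) to the chemokine gene Ccl5 (0.24 ± 0.13).

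Markers of other cell types also lay away from 0. Of the 11 measured markers of immature thymocytes, 9 were below 0 on both arrays and 2 above, against 29.1% and 28.3% of all 9393 measured genes. Their median was -0.34, from the chemokine receptor gene Ccr9 (-0.53 ± 0.10) to Cd1d1 (0.03 ± 0.03). Their summed normalised level was 21917 and 21832 units in the transgenic pool, against 28146 and 28541 units in the control pool, and Rag2 was not well above background. Arpp21, at -0.37 by its brightest probe, read 0.45 at another measured probe. Of 10 white adipocyte markers 6 were measured, with a median of 0.61, from Pparg (0.05 ± 0.18) to Cfd (1.61 ± 0.01, at least 2.97-fold higher). Of these 6, Cfd, Cidec and Car3 had control signals that were not well above background. The median was 0.52 with those 3 at their bounds, 0.38 over the other 3, and 0.38 with no filter on dim probes. Their sum was 1767 and 1701 units in the transgenic pool, against 1051 and 1008 units in the control pool. That sum weighs Fabp4 (0.78 ± 0.04) most, with raw signals of 541 to 1573 units, while the highest signal of another measured marker was 242 units. Plin1, Lep and Retn were not well above background in any channel. Of 8 neutrophil markers 5 were measured, with a median of 0.34, from Mpo (0.01 ± 0.04) to S100a9 (0.62 ± 0.01). Array 1 alone gave a median of 0.37 and array 2 alone 0.14, while both arrays without the filter on dim probes gave 0.087. Their sum was 1510.0 and 1375 units in the transgenic pool, against 1065 and 1002 units in the control pool. That sum weighs S100a9 most, with raw signals of 542 to 1436 units, while the highest signal of another measured marker was 159 units. Ngp, Retnlg and Elane were not well above background. The part of these values in the MS4A ratios was not tested.

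**Figure D5:**
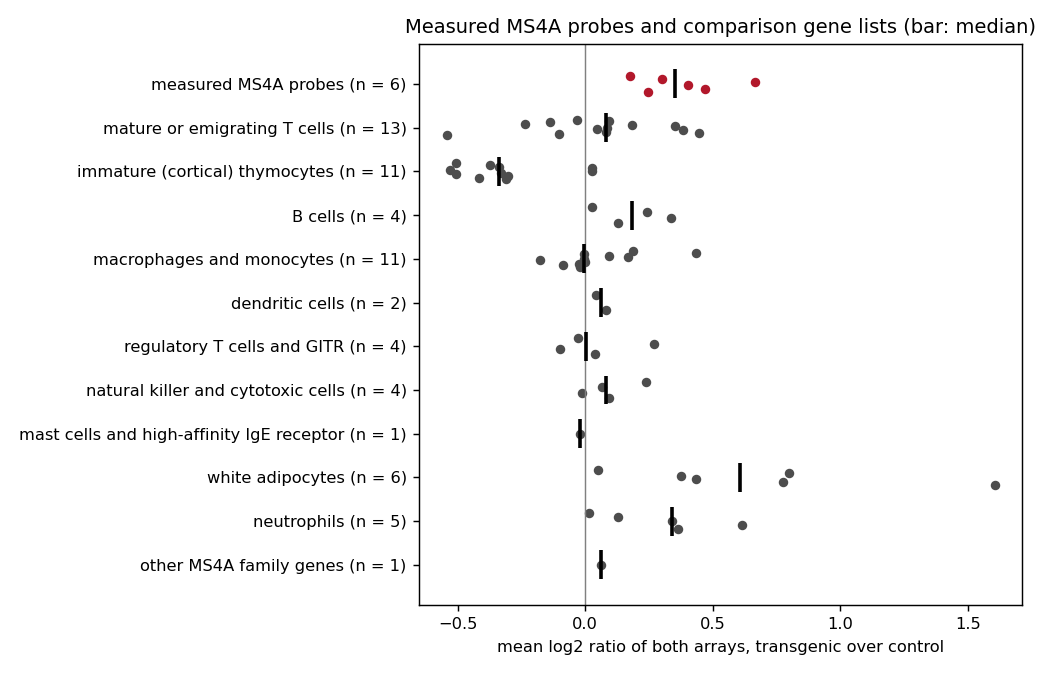
Mean log2 ratio of both arrays, transgenic over control, of the 6 measured MS4A probes (top row, red) and of the measured genes of 11 comparison lists (grey), with the median of each as a bar. The top row shows probes, 4 of them of Ms4a4b, from 0.17 to 0.67, while the lists hold 1 probe per gene, and 3 of the 6 white adipocyte points have a control not well above background.

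The genes nearest to Ms4a4b were found by the distance between their 2 array ratios and the Ms4a4b means of 0.47 (array 1) and 0.42 (array 2), among 1 probe per measured gene. They were Odf2 (distance 0.0083), Mrpl15 (0.012), H1f0 (0.016), Cidec (0.019) and Cebpd (0.050). Their mean ratios were 0.45 for Odf2, 0.44 for Mrpl15, 0.46 for H1f0, 0.44 for Cidec and 0.41 for Cebpd. Cidec had a control signal not well above background (at least 1.23-fold higher), so its ratio and its distance are not exact. This likeness covers 1 pair of pools and the mean of 4 Ms4a4b probes, among them A_52_P306949, whose ratio has only a lower bound. Over the 3 probes well above background in all channels the Ms4a4b means were 0.54 (array 1) and 0.49 (array 2). The distances above do not refer to those means, so they are not exact for any gene.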

How the data were processed

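Gene expression in thymus was measured on 2 two-colour Agilent arrays with exchanged dyes. The deposited scanner files hold the mean and local background intensity of each spot on a linear scale, and name Feature Extraction 9.5.1.1 as their source. Per the file headers, the software's LogRatio is a log10 value, Cy5 over Cy3, taken after spatial detrending, lowess and the use of surrogates at low signal. The deposited series table holds log10 ratios of the software's processed signals, Cy5 over Cy3, neither turned nor centred (medians -0.113 and -0.101). These equal the software's LogRatio at the measured member probes and differ from it at some dim ones. The deposited flags (other columns) mark spots as well above background, saturated or outliers.

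Signals were corrected by normexp (offset 50) and loess in limma 3.58.1 (R 4.3.3), with control and outlier spots at weight 0. Outlier spots, 46 and 37, were left out. No member was saturated. Array 2 was turned to read transgenic over control. Levels per channel and bounds followed Aquantile scaling. The arrays' number, and their 1 pool per genotype, limit the precision. The steps were tested on simulated dye swaps, with changes of at least 2-fold set only in spots brighter than A_52_P306949. Direction was checked at offsets of 50 and 0, and size only at 0. Smaller changes and dimmer spots were not covered.

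All probes were named from RefSeq (GRCm38.p6) by accession (23374), symbol (6733) or synonym (2959), and 8108 kept the array's name. Probe positions are on mm8, per the file headers. Exon and UTR positions of the probes were not analysed here. Promoter windows are RefSeq's (GRCm38.p6). The brightest measured probe stood for each gene of a list. All member probes, each list's highest and lowest gene, 2 known partners (Fcer1g, Tnfrsf18), undetected markers and the 5 genes nearest to Ms4a4b were named. Further names (Cd4, Cd8a, Rag1, Tmem176b, Ly6d, Lyz2, Fabp4, Arpp21) fall outside this rule. The members and lists were chosen with earlier results of these data known. Alternatives were an offset of 0, no background correction, the software's log ratios, the series table, median centring, each array alone and other filters on dim probes, with the Ms4a4b mean over probes well above background in all channels added after the data were seen.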

Additional observations from a re-analysis of the deposited data

How the results depend on the processing

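With 1 pool per genotype nothing was tested, so the alternatives show only how values move. The mean log2 ratio over the 4 measured Ms4a4b probes was 0.45, and 0.81 with an offset of 0, 0.51 without background correction, and 0.93 by the software's log ratios or the series table. The fourth probe, A_52_P306949, was measured only through the transgenic channels. Over the 3 probes well above background in all 4 channels, a choice made after seeing the data, the mean was 0.51. Over these 3 it was 0.78 with an offset of 0 and 0.84 by the software's log ratios. Over all 4 it was 0.43 with median centring, and 0.42 to 0.47 on 1 array alone. Of the 42 alternative values of the 6 measured probes, 42 were above 0, and 20 had moved by more than the SD between arrays. The values of 1 array alone were above 0 in advance, since all 6 probes read so on both arrays. They also cannot move by more than that SD. The values with median centring are means of both arrays. Array 2 alone then read -0.05 for A_51_P136294 and -0.41 for Ms4a6b. At these probes the series table repeated the software's values, so the 42 are not separate checks. The 6 probes above 0 on both arrays became 4 with median centring. The share of all measured probes above 0 on both arrays was 2.27% with that centring, against 27.5% with loess. The count was 8 with no filter on dim probes (of 17) and 5 among probes well above background in all 4 channels. For these filters no share over all probes is given. The other alternatives gave 6, and those with another processing had a share of 27.7% to 28.6%. The median of mature T cell markers was -0.02 on array 2 alone. White adipocyte and neutrophil medians (0.61 and 0.34) were 1.24 and 0.64 with an offset of 0, and 0.38 and 0.087 with no filter on dim probes. Depth of signal limits the family: 11 of 17 probes were not measured. No paired test was possible with 1 pool per genotype. Each ratio already sets both pools against each other within an array.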
